A study of Mus musculus with 4 samples.

Results

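Atrial spots are the places on a heart section where the counted transcripts include those of atrial muscle. They were chosen by measured values: a spot was called atrial when it held at least 5000 unique molecular identifiers (UMIs, each a counted transcript) and when Myl7, Myl4, Sln, Bmp10 and Mybphl together made up 0.5% or more of them. By this rule 164 spots were atrial, of 2585 spots in their section and 10744 in the whole series. All 164 lay in the 2nd replicate of the group that received the IL-17A antibody. A ventricular spot had at least 5000 UMIs, Myh6 at 1% or more of them and the 5 atrial genes under 0.5%; the same section had 1953 of these.

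The study profiled heart sections of wild type FVB/NJ mice on Visium slides, whose barcoded spots record the transcripts of the tissue at each place. All mice were immunized with MyHCα peptide, a peptide of the cardiac myosin heavy chain, and all received antibodies against PD-1 and CTLA-4, a pair of immune checkpoint inhibitors. There were 4 sections, 2 from mice given the inhibitors alone and 2 from mice given an IL-17A neutralizing antibody as well, with 1 section of each group in batch 1 and 1 in batch 2. The labels do not say that the sections came from separate mice, the sources used here give no age for the mice, and no section from an unimmunized or untreated heart was analysed here. Every atrial value below therefore comes from a heart that had been immunized and given all 3 antibodies.

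Atrial and ventricular muscle share most of the contractile machinery but differ in the light chains of myosin, in ion channels and in secretion. Atrial myocytes store and release atrial natriuretic peptide, the product of Nppa, which lowers blood volume and pressure. They also use the acetylcholine-gated potassium channel and connexin 40, which carry vagal slowing and fast conduction. Ventricular myocytes instead make the ventricular light chains Myl2 and Myl3 and are the main site of fatty acid oxidation in the heart.

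The rule left a clear gap at its threshold. The lowest atrial shares inside were 0.944%, 1.00% and 1.48% of UMIs, the median was 2.64% and the highest 5.31%, whereas the highest shares outside it in the section were 0.248%, 0.190% and 0.114%. In the 3 other sections 0 of 8039 spots with 5000 or more UMIs passed, a count that holds for these cuts only. Their highest spots reached 0.0377%, 0.290% and 0.0238% of UMIs. Of the 5 genes, Bmp10 contributed almost nothing: it had 1 UMI in all atrial spots together, so membership rested on Myl7, Myl4, Sln and Mybphl. Their pooled levels were 7912, 15716, 2164 and 1061 CPM in atrial spots (UMIs of the gene per 1000000 UMIs of the class), and as they set the rule they are given as a description only.

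The atrial spots formed a thin, folded band at the edge of the section. They occupied array rows 5 to 20, with 156 of them in 1 connected piece and the others in pieces of 3, 3 and 2 spots. No atrial spot adjoined a ventricular spot: the nearest ventricular spots were 2 grid steps away, and only 3 were that near. Tissue that was not atrial adjoined 3 of the atrial spots. Under tissue, 157 atrial spots (95.7%) lacked at least 1 of their 6 grid neighbours, compared with 320 ventricular spots (16.4%), so nearly every atrial spot lay at a tissue edge. Myh6, the main cardiac myosin heavy chain of the adult mouse, made up 1% or more of UMIs in 162 of the 164.

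**Figure D1:**
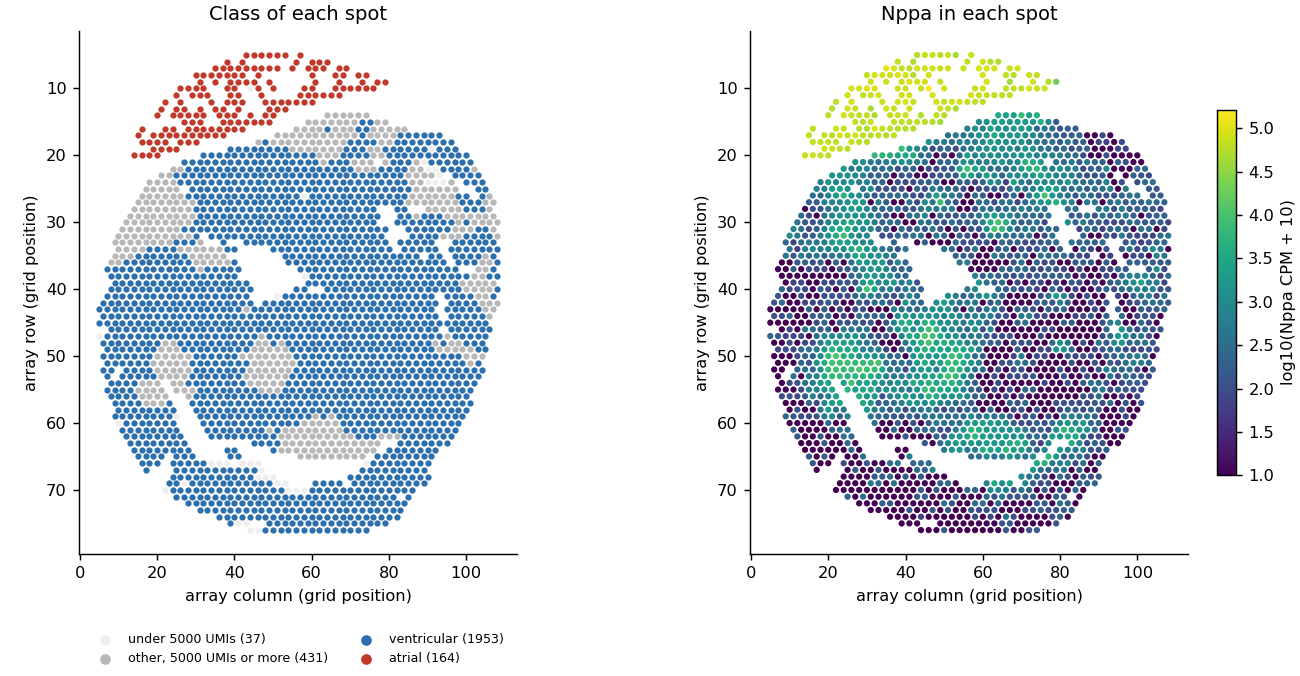
Each dot is a spot at its array row and column; the left panel colours spots by class, with the number of spots in brackets, and the right panel by the log10 of the CPM of Nppa plus 10. The 164 atrial spots form the separate band at the top, in rows 5 to 20, which is also the brightest area for Nppa.

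Depth was similar in both classes. Atrial spots held 6402 to 27994 UMIs with a median of 14229, and ventricular spots 5046 to 43239 with a median of 11689. The median number of genes per spot was 4689 against 3999, and 2432.5 against 2325 once each spot was thinned to 5000 UMIs. The summed depths were 2337316 and 23254934 UMIs. Grid places, not cells, carry the barcodes, and 1670 of the 3774 barcodes appeared in all 4 sections. A spot can hold several cells of different types, spots of 1 section are not replicates, and so levels are pooled over the spots of a class, with exact 95% intervals that cover counting error only and with no test between classes. A lower level can reflect fewer cells of a type or less RNA per cell, which cannot be told apart here.

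Promoter sequences of 4 genes are shown. Nppa, Myl2 and Myl3 are there because no atrial spot overlapped a ventricular spot in their levels, and Myl7, the atrial light chain, because it is one of the genes that set the rule. Each is the 250 bases before the RefSeq transcription start on GRCm38.p6, written 5′ to 3′ on the gene's own strand: chr4:148000472-148000721 (plus strand) for Nppa, chr11:5898783-5899032 (minus) for Myl7, chr5:122092474-122092723 (plus, the 1st of 2 listed starts) for Myl2 and chr9:110763428-110763677 (plus) for Myl3. Capitals mark matches to any of 6 short motifs.
Nppa: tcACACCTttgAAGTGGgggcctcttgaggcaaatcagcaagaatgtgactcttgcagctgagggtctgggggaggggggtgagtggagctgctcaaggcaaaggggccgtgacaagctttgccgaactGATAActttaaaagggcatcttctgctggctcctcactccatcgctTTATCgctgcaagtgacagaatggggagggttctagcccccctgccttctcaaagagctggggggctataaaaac
Myl7: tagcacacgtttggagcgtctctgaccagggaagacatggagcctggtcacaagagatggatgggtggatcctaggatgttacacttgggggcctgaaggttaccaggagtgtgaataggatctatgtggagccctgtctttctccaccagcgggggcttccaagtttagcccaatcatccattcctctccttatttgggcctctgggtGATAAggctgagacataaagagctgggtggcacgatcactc
Myl2: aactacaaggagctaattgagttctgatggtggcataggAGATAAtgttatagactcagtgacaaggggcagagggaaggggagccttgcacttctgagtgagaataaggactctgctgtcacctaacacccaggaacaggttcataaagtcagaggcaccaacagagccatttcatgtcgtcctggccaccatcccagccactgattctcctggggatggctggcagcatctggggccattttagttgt
Myl3: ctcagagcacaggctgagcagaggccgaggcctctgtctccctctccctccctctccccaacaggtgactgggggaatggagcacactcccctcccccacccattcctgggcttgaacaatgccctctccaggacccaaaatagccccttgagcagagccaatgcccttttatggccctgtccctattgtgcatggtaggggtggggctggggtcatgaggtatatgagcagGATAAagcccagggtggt

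The motifs, searched on both strands, were AGGTGT (T-box factors), AGGTCA (nuclear receptors), GATAA and the longer AGATAA that contains it (GATA factors), AAGTGG (NKX2-5) and the MEF2 consensus. The Nppa promoter held an AGGTGT match on the minus strand and an AAGTGG match near its far end and 2 GATAA matches, Myl7 and Myl3 held 1 GATAA each, and Myl2 held 1 AGATAA. No AGGTCA or MEF2 match was among these letters. Over all 27025 promoters of this length, the shares with a match were 12.0% for AGGTGT, 13.8% for AGGTCA, 23.0% for GATAA, 10.3% for AGATAA, 3.23% for MEF2 and 14% for AAGTGG. Among the promoters of 430 genes at least 2-fold higher in atrial spots the same shares were 13%, 10.7%, 13.5%, 5.58%, 4.19% and 15.1%. Among the 7725 measured genes with a listed promoter they were 9.26%, 10.3%, 13.9%, 5.44%, 2.78% and 13.6%, so the higher genes sat within a few percentage points of all measured genes for every motif. Among the promoters of 227 genes at least 2-fold lower in atrial spots the shares were 11.5%, 16.7%, 16.7%, 11.0%, 2.64% and 11.5%, in which AGGTCA and AGATAA lay farthest above the measured genes. These shares are descriptions with no test.

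Across all genes, 591 of the 9739 genes with 10 CPM or more in either class were at least 2-fold higher in atrial spots (6.07%) and 293 were at least 2-fold lower (3.01%). These shares are the background for every list count against ventricular spots below. The 5 genes of the rule and Myh6 were left out. The median log2 ratio of all tested genes was 0.07. Higher genes made up 66.9% of those past 2-fold. That split depends on scaling, because Nppa alone took 7.23% of all atrial UMIs: with TMM factors it was 438 higher and 437 lower (50.1% higher, median log2 ratio -0.12), and with library sizes that leave out Nppa, Myh6 and the 5 genes it was 846 and 216 (79.7%, median 0.23).

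Genes of the atrial chamber that the rule did not use marked the same spots. Nppa, Kcnj3, Gja5, Nr2f2, Sbk2 and Dkk3, the 6 independent atrial markers, were all past 2-fold higher. In the wider list of atrial chamber genes, 15 of 20 tested were past 2-fold higher and 1, Ptgds, was lower, with a median log2 ratio of 2.53. The 4 others, Smpx and Chrm2 among them, did not pass 2-fold. The ventricular markers Myl2, Myl3 and Irx4 were lower, while the ventricular marker Hey2 was not. Hey2 stood at 2.14 CPM (5 UMIs) in atrial and 2.11 CPM (49 UMIs) in ventricular spots, a ratio of 1.02 (0.316 to 2.53). It did not reach the 10 CPM needed for a call. Markers of lung and skeletal muscle were scarce: the summed lung epithelial list came to 9.41 CPM in atrial and 7.05 CPM in ventricular spots, and skeletal muscle to 24.0 and 10.2 CPM. Neuron and Schwann cell genes summed to 86.9 and 76.4 CPM.

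The largest atrial level was that of a secreted peptide. Nppa ranged from 18335 to 163722 CPM over the atrial spots, with a median of 70868, and from 0 to 11657 CPM with a median of 135 over the ventricular spots. The classes did not overlap: the lowest atrial spot lay above the highest ventricular spot. Pooled, Nppa stood at 72318 CPM (95% interval 71974 to 72664) against 491 CPM (482 to 500), a 147-fold ratio (145 to 150). Pam, the enzyme that amidates secreted peptides and is a major membrane protein of atrial granules, ranged from 3734 to 14768 CPM in atrial spots and from 0 to 5352 CPM in ventricular spots, and only 1 ventricular spot reached the lowest atrial value. Its pooled level was 8612 against 788 CPM, 10.9-fold higher (10.7 to 11.1). Corin, the protease that cuts the natriuretic precursor to its active form, was 2.06-fold higher (1.80 to 2.36) at 116 against 55.9 CPM, a ratio that dropped under 2 with TMM factors. Npr3, the clearance receptor that removes natriuretic peptides and also marks endocardium, was 12.1-fold higher (10.8 to 13.5). In all, 4 of the 10 tested genes of the natriuretic axis were past 2-fold higher and 0 lower. Nppb, the ventricular stress peptide, had 5 UMIs in all atrial spots (2.14 CPM) and stood at 0.430 CPM in ventricular spots, and Nppc had 0 atrial UMIs. Over whole sections Nppb stood at 0.334 to 0.606 CPM, so it was barely counted in any of the 4.

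**Figure D2:**
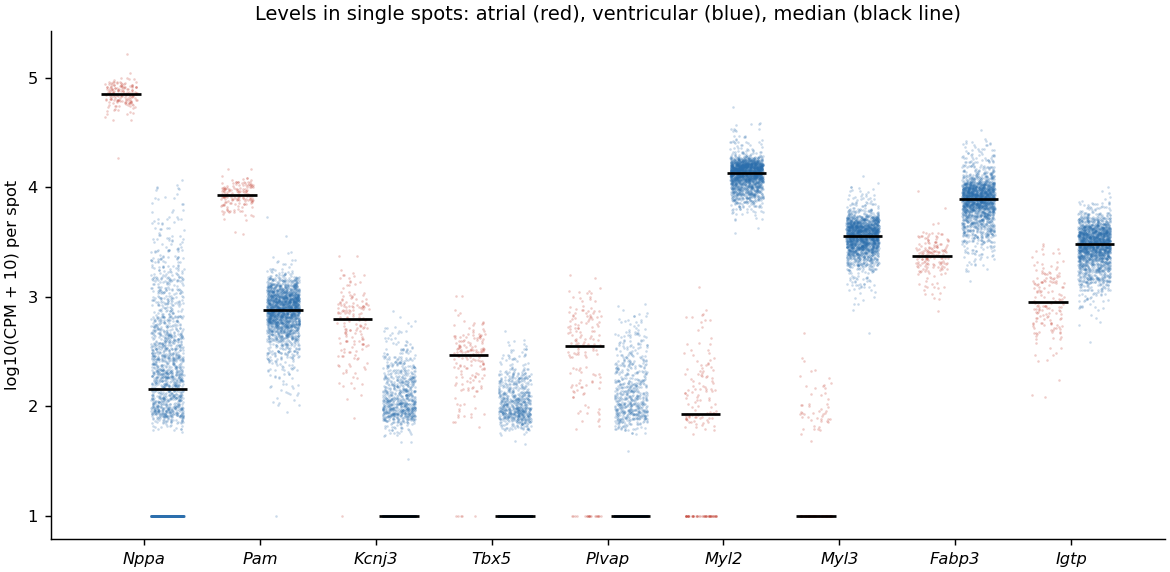
The vertical axis is the log10 of the CPM plus 10 in single spots, for 164 atrial spots (red) and 1953 ventricular spots (blue); black lines are medians, and spots without a UMI lie at 1. Nppa, Myl2 and Myl3 separate the classes with no overlap, while Kcnj3, Tbx5, Plvap, Fabp3 and Igtp overlap.

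The 15 genes with the highest ratios were Fgf12, Tmem163, Sbk3, Fbxw18, Ppp1r1b, Dkk3, Nppa, Fbxw24, Rxfp1, Mlana, Sds, Adcy1, Cilp2, Sbk2 and Fras1. Fgf12, an intracellular fibroblast growth factor homologue that binds sodium channels, had UMIs in 162 of 164 atrial spots and in 41 of 1953 ventricular spots (2.1%). It stood at 542 against 1.89 CPM, 286-fold higher (212 to 396). Sbk3, an SH3-binding kinase, was found in every atrial spot, at 139 to 2649 CPM, and in 83 ventricular spots, and was 203-fold higher (166 to 252). Its neighbouring relative Sbk2 was 53.9-fold higher (41.6 to 70.6). Tmem163, a zinc transporter of vesicle membranes, stood at 301 against 1.42 CPM, and Dkk3, a secreted member of the Dickkopf family, at 382 against 2.28 CPM. Their ratios were 212 (150 to 310) and 168 (127 to 226). Against the highest genes the lower members of the group had few counts: Fras1 had 52 atrial UMIs and Fbxw24 57, and Fbxw18 and Fbxw24 belong to a large family of similar genes whose counts may be shared. Adcy1, the calcium-stimulated adenylyl cyclase, reached 80.0 against 1.25 CPM, 64.2-fold higher (43.2 to 98.4).

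Transcription factors of the chambers differed too. Tbx5, a T-box factor of atrial and conduction identity, had UMIs in 159 of 164 atrial spots with a median of 283 CPM, and in 686 ventricular spots (35.1%) with a median of 0. Only 18 ventricular spots reached the atrial median, and the pooled ratio was 7.45 (6.73 to 8.24). Nr2f2, the nuclear receptor that maintains atrial identity, was 5.68-fold higher (4.72 to 6.80) at 81.3 against 14.3 CPM. Its relative Nr2f1 was 3.99-fold higher (3.07 to 5.14). Bmp10, which in the adult is made in the right atrium, stood at 0.428 CPM in the atrial spots. The ventricular factor Irx4 had 2 UMIs in the atrial spots, 0.856 CPM, against 63.8 CPM, and was 74.6-fold lower (20.6 to 616). Irx1, of the same homeobox family, was 15.8-fold lower (5.39 to 77.1). Shox2 was under 1 CPM in both classes (0.856 and 0.860).

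The ion channel genes went both ways. Kcnj3, a subunit of the acetylcholine-gated potassium channel, ranged from 0 to 2365 CPM in atrial spots with a median of 615 and from 0 to 739 CPM in ventricular spots with a median of 0, and 2 ventricular spots reached the atrial median. Pooled, it was 13.9-fold higher (12.8 to 15). Its partner subunit Kcnj5 was 2.75-fold higher (2.36 to 3.20), at 92.4 against 33.6 CPM. Abcc8, the SUR1 subunit of ATP-sensitive potassium channels, was 4.23-fold higher (3.60 to 4.95), whereas Abcc9, the SUR2 subunit, was 3.83-fold lower (3.17 to 4.67). Cacna1c, the pore of the L-type calcium channel, was 2.61-fold lower (2.24 to 3.04). Of 23 tested potassium and sodium channel genes, 6 were past 2-fold higher (among them Kcnj3, Kcnj5, Kcna4, Abcc8 and Scn10a) and 5 lower (Kcnj8, Kcnip2, Abcc9, Scn4b and Hcn2). The shares over all genes were 6.07% higher and 3.01% lower. Kcnip2, the partner of the transient outward channel, was 2.04-fold lower and went under 2-fold in several alternatives. Kcna5 stood at 13.3 against 26.4 CPM, 1.99-fold lower (1.39 to 2.96). Kcnj2 and Kcnd2 were near equal, with ratios of 0.850 and 0.922.

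Gap junction genes and conduction genes followed. Gja5, which encodes connexin 40, had UMIs in 149 of 164 atrial spots and in 166 ventricular spots (8.5%), at 186 against 8.43 CPM, 22-fold higher (18.6 to 26.2). Gja1, encoding connexin 43, was present in both at 531 and 708 CPM. Of 9 tested sinoatrial and conduction genes, 5 were past 2-fold higher (among them Tbx18, Ntm, Gja5 and Rgs6) and 2 lower (Smoc2 and Cacna1g). Over all genes 6.07% were higher and 3.01% lower. Hcn4, the main pacemaker channel of the sinoatrial node, had 1 UMI in the atrial spots.

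The ventricular light chains were almost absent from the atrial spots, while the ventricular list as a whole was not: it summed to 13021 CPM in atrial and 44951 CPM in ventricular spots. Myl2 lay between 0 and 1207 CPM in atrial spots with a median of 74.3, and between 3776 and 53552 CPM in ventricular spots with a median of 13628, so the classes did not overlap. The pooled levels were 122 CPM (108 to 137) and 13416 CPM (13369 to 13464), 110-fold lower in atrial spots (98.0 to 124). Myl3 was 115-fold lower (91.9 to 147), at 31.7 against 3651 CPM, again with every atrial spot below every ventricular spot. Myh7, the slow myosin heavy chain, was 67.1-fold lower (39.2 to 126), at 5.56 against 373 CPM. Strit1, a small membrane peptide that activates the calcium pump SERCA, had 5 UMIs in atrial spots and was 129-fold lower (55.3 to 398). Gpr22, an orphan receptor of myocardium, had 0 UMIs against 31.2 CPM, at least 24.3-fold lower with 3 counts over all atrial spots as the floor.

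The 15 genes with the lowest ratios were Strit1, Myh7b, Myl3, Myl2, Irx4, Myh7, Epn3, Acta1, Ptgds, Scx, Gpr22, Irx1, Lrtm1, Tesc and Myot. Acta1, the skeletal alpha actin of stressed or immature heart muscle, was 29.6-fold lower (24.5 to 36.0). Ptgds, prostaglandin D synthase, was 27.0-fold lower (20.1 to 37.0). Tesc and Lrtm1 were 14.7-fold and 14.8-fold lower. Of 18 tested ventricular chamber genes, 9 were past 2-fold lower and 0 higher, with a median log2 ratio of -1.0 (3.01% of all genes were lower). The 5 of them that held against every other spot of the section were Myl2, Myl3, Myh7, Irx4 and Fhl2.

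Most of the shared contractile machinery was at like levels. Myh6 stood at 22531 and 21263 CPM, but as it sets the ventricular class it is only described. Tnnt2, the cardiac troponin T, was at 12522 against 13529 CPM (ratio 0.926, 0.915 to 0.937), Ttn, titin, at 3414 against 3794 CPM and Tnni3 at 4400 against 5250 CPM. Ryr2, the calcium release channel, was at 1895 against 1913 CPM (ratio 0.990, 0.960 to 1.02) and Atp2a2, the SERCA pump, at 9482 against 10611 CPM. Pln, its inhibitor, was at 2927 against 5739 CPM, 1.96-fold lower (1.91 to 2.01). Tnnc1, troponin C, was past the 2-fold limit, 2.51-fold lower (2.44 to 2.58). Of 20 tested sarcomere genes, 1 was past 2-fold higher (Myom2) and 3 lower (Acta1, Tnnc1 and Myh7b), and of 20 calcium handling genes 1 was higher (Atp2b4) and 2 lower (Casq1 and Cacna1c).

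Genes of fatty acid use were lower as a list. Of 24 tested, 12 were past 2-fold lower and 0 higher (background 3.01% lower), with a median log2 ratio of -0.96. Against ventricular spots at the tissue edge the count was 10 of 24 (2.93% of all genes were lower there), and against every other spot 8 of 24 (4.18%). Fabp3, the cytosolic carrier of fatty acids in heart muscle, lay between 736 and 9183 CPM with a median of 2372 in atrial spots and between 1375 and 33370 CPM with a median of 7861 in ventricular spots. The ranges overlapped, but 163 of 164 atrial spots lay at or below the ventricular median, and the pooled level was 3.25-fold lower (3.17 to 3.34). Cd36, the fatty acid transporter, was 2.30-fold lower (2.20 to 2.40). Dgat2, which makes triglyceride, was 6.06-fold lower (4.94 to 7.52), Angptl4, an inhibitor of lipoprotein lipase, 4.14-fold lower (2.53 to 7.29), and Plin5, a lipid droplet protein, 2.80-fold lower (2.32 to 3.41). Cpt1b, the entry enzyme of mitochondrial oxidation, was at 350 against 536 CPM and did not pass 2-fold. No nuclear gene of the respiratory chain passed 2-fold (0 of 25), with a median log2 ratio of -0.55, and 1 of 14 tested glycolytic genes was lower (Pfkl).

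Genes of the heart's linings were higher. Of 12 tested epicardial and mesothelial genes, 9 were past 2-fold higher and 2 lower (Aldh1a2 and Saa3), with a median log2 ratio of 4.27. Upk1b, a uroplakin of mesothelium, was counted in 42 atrial spots and 26 ventricular spots and was 30.9-fold higher (20.1 to 48.7). Krt19, a keratin of the mesothelial sheet, was 26-fold higher (18 to 38.2), Muc16, a surface mucin, 27.6-fold (12.5 to 67.3) and Upk3b 19.0-fold (11.1 to 33.4). The edge position of the atrial spots moved with these values: against ventricular spots that also lacked a neighbour, 9 were still higher and 2 lower, where 5.32% of all genes were higher, but the median fell to 2.39 and the ratios were 6.72 for Upk1b, 10.7 for Krt19, 12.5 for Muc16 and 5.23 for Upk3b. Wt1, an epicardial factor, did not reach 10 CPM in either class (7.70 and 4.64 CPM).

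Of 10 tested endocardial genes 8 were past 2-fold higher and 0 lower, where 6.07% of all genes were higher and 3.01% lower. The median log2 ratio was 2.21, and 1.55 against edge spots. Plvap, a protein of fenestrated and endocardial endothelium, ranged from 0 to 1571 CPM with a median of 348 in atrial spots and from 0 to 849 CPM with a median of 0 in ventricular spots. It was 8.12-fold higher (7.44 to 8.86), and 3.97-fold against edge spots. Cytl1, a secreted cytokine-like protein, was 9.53-fold higher (7.47 to 12.1), and 4.92-fold against edge spots. General endothelial genes did not follow: 0 of 14 were higher and 2 lower, Rgcc and Car4, both of capillary endothelium. Pecam1 stood at 160 against 119 CPM. Haemoglobin and other erythroid genes were lower, 4 of 4 tested, with Hba-a2 at 175 against 875 CPM (5.01-fold lower, 4.55 to 5.54).

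Connective tissue genes were partly higher. Of 14 fibroblast genes, 7 were past 2-fold higher and 0 lower, with a median log2 ratio of 0.91 (5 of 14 against edge spots and 6 of 14 against every other spot). The shares of all genes higher in these 3 comparisons were 6.07%, 5.32% and 5.59%. Tcf21, a fibroblast transcription factor, was 2.86-fold higher (2.20 to 3.70), and Fbln1, a matrix glycoprotein, 3.23-fold (2.86 to 3.64). Eln, elastin, had the largest ratio of the 23 tested genes in the matrix list, with a median of 178 CPM in atrial spots against 0, and was 5.41-fold higher (4.86 to 6.02). Postn was 3.23-fold higher (2.45 to 4.21) and Thbs1 4.12-fold lower (2.68 to 6.68). In that list 9 of 23 genes were higher and 3 lower, beside 6.07% and 3.01% of all genes. Col1a1, the main fibrillar collagen, was at 420 against 274 CPM (ratio 1.53, 1.43 to 1.64). Smooth muscle genes other than Smtn were not higher (1 of 14 higher, 2 lower), and 2 of 6 tested adipocyte genes were lower.

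**Figure D3:**
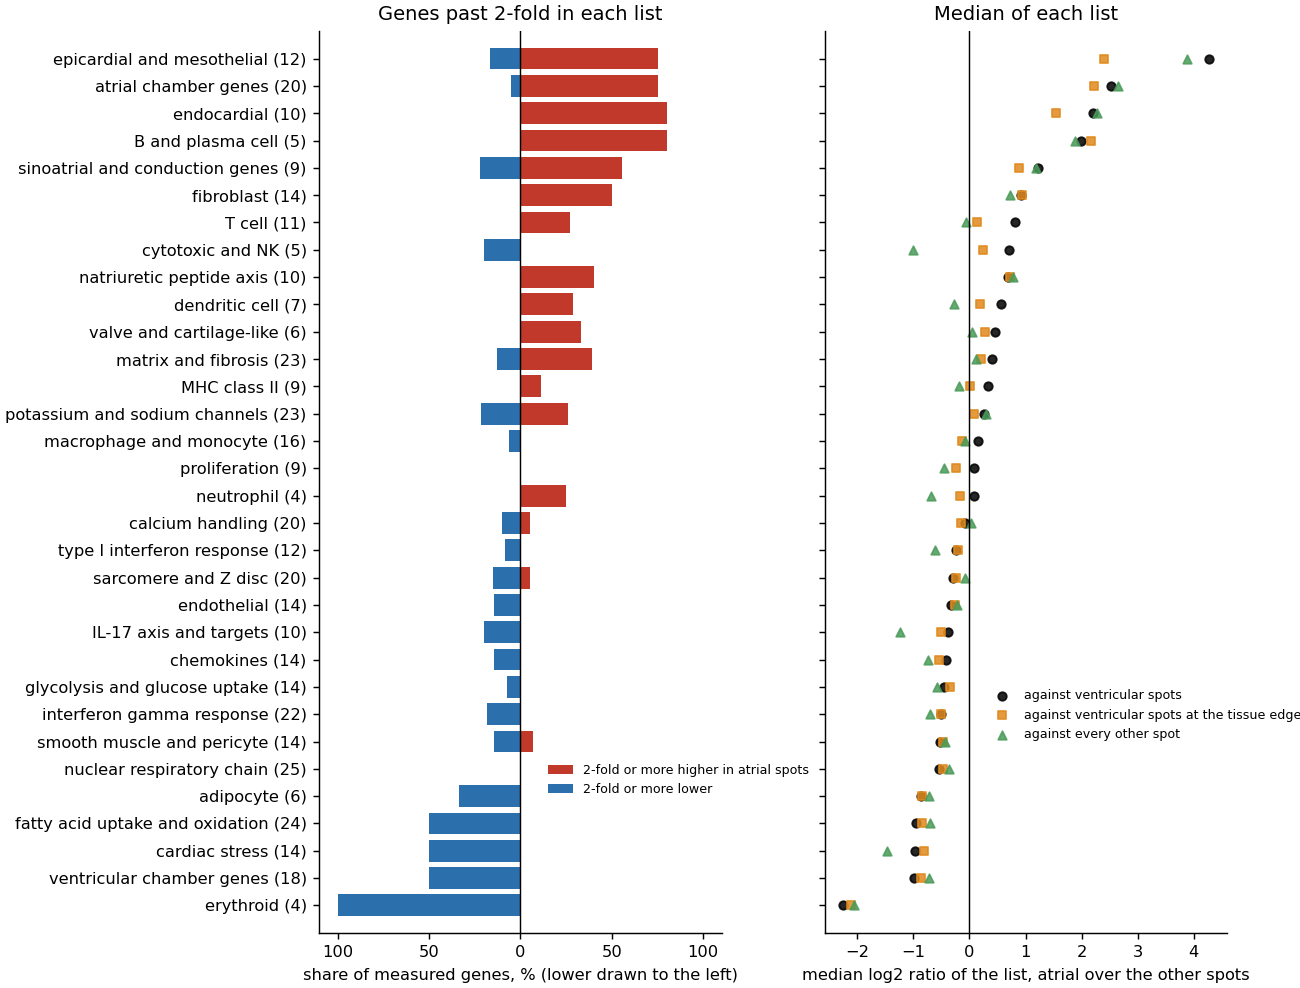
Left, the share of each list's tested genes (number in brackets) that was at least 2-fold higher (red) or lower (blue, drawn to the left) in atrial spots; right, the median log2 ratio of each list against 3 comparison sets. Epicardial, atrial chamber and endocardial lists lie farthest to the right, and the T cell, cytotoxic, dendritic and IL-17 lists shift left against every other spot.

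Immune genes depended on what the atrial spots were set against. The ventricular class needs Myh6 at 1% or more, so it leaves out the 431 other spots, in which Myh6 was lower, while the atrial class has no such limit. Against the ventricular class, 3 of 11 tested T cell genes (Cd3d, Cd3e and Trac) were past 2-fold higher, and the whole list summed to 276 against 166 CPM. Cd3e, a chain of the T cell receptor complex, had 68 UMIs in 48 atrial spots and was 2.56-fold higher (1.93 to 3.36). Against edge spots the ratio was 1.37, and against every other spot with 5000 or more UMIs it was 1.29. No T cell gene was past 2-fold in those comparisons (0 of 12 and 0 of 12), where 5.59% of all genes were higher and 4.18% lower than in every other spot. The median of the list went from 0.81 to 0.14 and -0.07.

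Macrophage genes were close to even against the ventricular spots, with 0 of 16 past 2-fold higher and 1, Spp1, lower. Against edge spots 2 of 16 were lower (Spp1 and Arg1), and against every other spot 4 were lower (Cd14, Fcgr1, Spp1 and Arg1) and 1, Cd163, was higher. The shares of all genes lower in these 3 comparisons were 3.01%, 2.93% and 4.18%. Cd68, a lysosomal protein of macrophages, stood at 54.3 against 58.7 CPM, and at 0.647 of its level in every other spot, and C1qa, a complement chain of macrophages, at 446 against 397 CPM. H2-Ab1, of MHC class II, stood at 1246 against 903 CPM (ratio 1.38), and at 0.917 of the level in every other spot. Ifng was at 11.6 against 6.15 CPM and did not pass 2-fold. Of 22 tested genes induced by interferon gamma, 4 were past 2-fold lower (Iigp1, Igtp, Irgm1 and Cd274) and 0 higher, beside 3.01% and 6.07% of all genes. Igtp, an interferon-induced GTPase, lay between 112 and 3022 CPM with a median of 883 in atrial spots and between 373 and 10107 CPM with a median of 3012 in ventricular spots, 3.04-fold lower (2.92 to 3.17) and 163 of 164 spots at or below the ventricular median. Irgm1, of the same family, was 2.36-fold lower (2.22 to 2.53). Cd274, which encodes the PD-1 ligand PD-L1, was 2.18-fold lower (1.97 to 2.41), and stood at 0.523 of its level in edge spots. Gbp2, another interferon-induced GTPase, stood at 587 against 708 CPM.

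In the IL-17 and cardiac stress lists the genes past 2-fold were lower in the atrial spots in all 3 comparisons. Of 10 tested genes of the IL-17 axis, 2 were past 2-fold lower (Cxcl5 and Il1b) and 0 higher, where 3.01% of all genes were lower, and against every other spot 6 of 11 were lower, where 4.18% of all genes were. The neutrophil list, with 4 tested genes, went both ways: Mmp9, a gelatinase, was 4.15-fold higher (2.61 to 6.43) and 2.13-fold higher against edge spots, and S100a9 was past 2-fold lower against every other spot. Cxcl5, a neutrophil chemokine that IL-17A induces, was 7.54-fold lower (4.08 to 15.8), and Il17ra, the IL-17A receptor, was at 13.3 against 19.8 CPM. Cxcl14 was 4.04-fold lower (2.92 to 5.76). Of 14 cardiac stress genes, 7 were past 2-fold lower and 0 higher, against 3.01% of all genes lower, with a median log2 ratio of -0.97. The 7 were Myh7, Acta1, Ankrd1, Mt2, Gdf15, Hspa1a and Hspa1b. Myh7 is also counted in the ventricular chamber list and Acta1 in the sarcomere list, so the lists are not separate. Gdf15, a secreted stress signal, was 6.91-fold lower (4.35 to 11.7). Against every other spot 11 of 15 stress genes were lower (4.18% of all genes), and 5 of 13 against edge spots (2.93%).

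Igkc and Jchain, genes of plasma cells, stood out in a small area. Of 5 tested B and plasma cell genes 4 were past 2-fold higher (Igkc, Jchain, Mzb1 and Sdc1), where 6.07% of all genes were higher. Igkc, the constant region of the kappa light chain, was pooled at 226 against 12.0 CPM, 18.8-fold higher (16.2 to 21.8), and 4.26-fold higher than in every other spot. Yet 127 of the 164 atrial spots had no Igkc UMI, the highest reached 14163 CPM, and the 16 richest spots held 93.2% of its UMIs. Those 16 spots lay between columns 50 and 62 in adjoining groups of 9, 5, 1 and 1. Jchain, the chain that joins secreted IgA and IgM, was in the same place, with 21 of its 25 UMIs in the 16 spots, which hold 11.0% of atrial UMIs. Mzb1 was not (4 of 27 UMIs), nor was Ighm, with 7 of 106. Sdc1 had 13 of its 44 UMIs in the 16 spots. The B cell genes Cd79a, Cd79b and Ms4a1 had 2, 5 and 0 UMIs in all atrial spots. The 148 other spots had Igkc at 17.3 CPM. Cd74 and Nppa did not differ by as much between the 16 and the 148 other spots, at 4207 against 4675 CPM and at 72058 against 72351 CPM.

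Among themselves the atrial spots varied less in Nppa, Pam and Tbx5 than in several blood and immune genes. For each of 2048 genes with 200 or more atrial UMIs, the coefficient of variation (CV) over the 164 spots beyond Poisson counting was computed, together with Moran's I over the 280 adjoining pairs of atrial spots, which is near 0 where neighbours are unrelated. The medians were 27.8% and 0.016. Nppa had an extra CV of 21.2%, Pam 19.1% and Tbx5 24.0%, below the median gene. Igkc had the highest of both (571% and 0.81), followed in extra CV by Hba-a2 (194%), Hbb-bs (166%), Cxcl10 (152%) and Retnla (149%). Retnla, a product of alternatively activated macrophages, also had the next highest Moran's I (0.54), with 44.9% of its UMIs in its 16 richest spots. Gbp2 (0.44), H2-Aa (0.43), Cd74 (0.43), Iigp1 (0.42) and Igtp (0.41) were likewise patterned. Myl2 was uneven too, with an extra CV of 105% and 40.0% of its few UMIs in its 16 richest spots. Divided at the median array column, the 85 spots at lower columns and the 79 at higher columns had Igkc at 1.63 and 473 CPM, Retnla at 440 and 842 CPM and Nppa at 73875 and 70606 CPM.

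**Figure D4:**
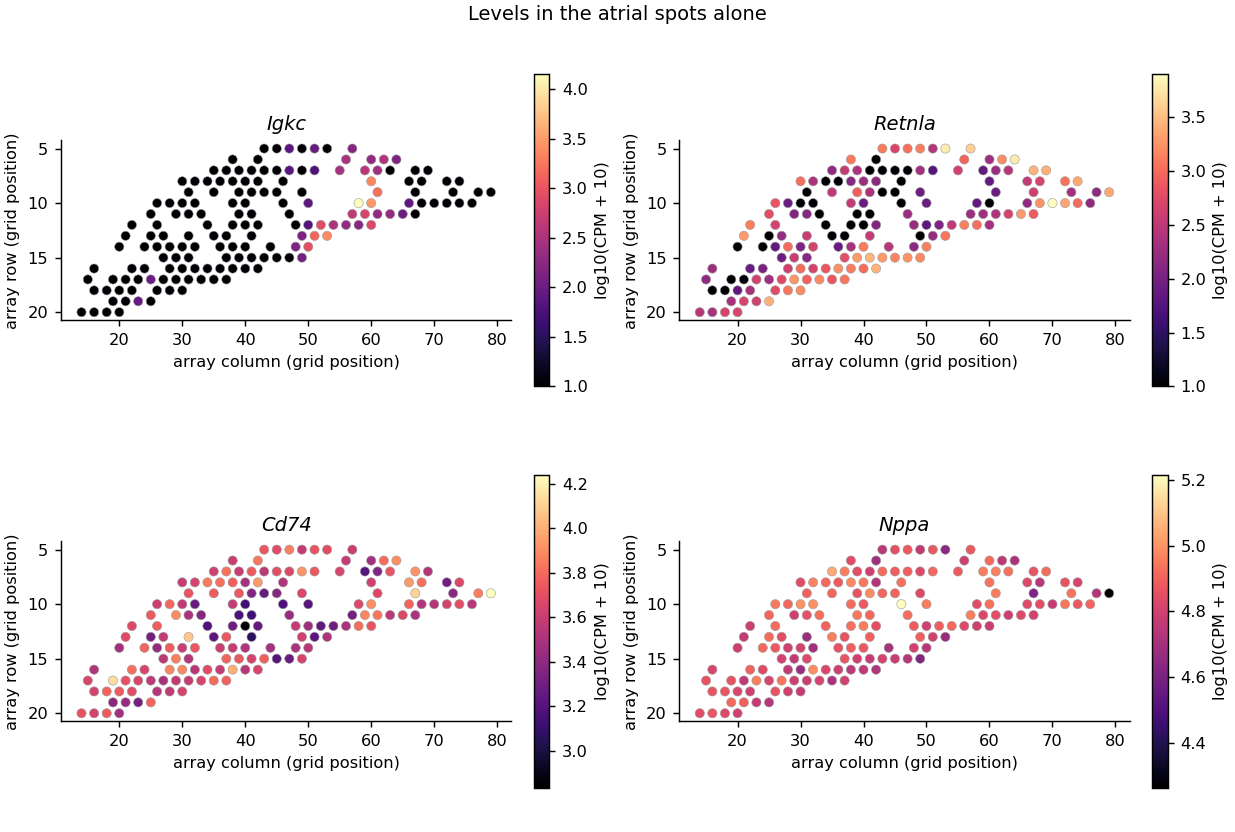
The 164 atrial spots at their array row and column, coloured by the log10 of the CPM plus 10 of Igkc, Retnla, Cd74 and Nppa, each with its own colour scale. Igkc is high in a patch around columns 50 to 62 and has no UMI in 127 spots, whereas Nppa is high throughout, at 18335 CPM or more.

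The share of UMIs from the 5 atrial genes, which chose the spots, ran from 0.944% to 5.31% and is used here only to order them. Of the 164 spots, 145 had a share of 2 to 4%, 15 of 1 to 2%, 3 of 4% or more and 1 under 1%. In the 15 spots of 1 to 2%, pooled Nppa was 56746 CPM against 74211 CPM in the 145, Kcnj3 338 against 709 CPM, and Myh6 15924 against 23286 CPM. In the same 15 spots Gbp2 was 1126 against 530 CPM and Col1a1 633 against 401 CPM. The thin bins (1, 15 and 3 spots) make these values a description of few spots.

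Nppa and Pam were among the atrial genes that were higher in the ventricular spots nearest the atrium. Several others were not seen to be higher, but at their counts a rise could have been missed. The 3 nearest spots held 29952 UMIs together, so Npr3, Kcnj3, Tbx5, Gja5, Sbk2 and Sbk3 had very few or no UMIs there. In the 3 ventricular spots 2 steps away Nppa was at 4808 CPM and Pam at 1469 CPM. In 30 spots at 3 to 4 steps these were 1098 and 1055 CPM, in 91 spots at 5 to 8 steps 724 and 878 CPM, and in the 1829 farther spots 461 and 778 CPM. Npr3 was at 66.8, 48.65, 24.2 and 24.7 CPM in the same order. Of the genes that set the rule, Myl4 was at 801, 74.3, 34.2 and 17.2 CPM and Myl7 at 401, 51.2, 16.7 and 6.47 CPM. Sln and Mybphl fell likewise and Bmp10 did not. Over the same distances Kcnj3 was at 33.4, 33.3, 16.7 and 50.8 CPM, Tbx5 at 33.4, 28.2, 26.7 and 39.7 CPM, and Gja5 at 0, 2.56, 6.67 and 8.64 CPM. Sbk2 and Sbk3 had 0 UMIs within 4 steps and stood at 3.10 and 4.44 CPM in the farther spots. Fgf12 and Dkk3 were at 100.2 and 66.8 CPM in the 3 nearest spots, which is few UMIs, and at 0 and 5.12 CPM at 3 to 4 steps. Myl2 was at 12019 CPM in the nearest and 13464 CPM in the farthest spots. The cause was not tested. Leaving out the spots nearer than 3 steps gave 592 higher and 294 lower genes.

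Moran's I over all spots of a section was higher in this section than in the others for some atrial genes that the rule did not use. The authors' deposited table gives Sbk3 0.62 here against 0.26, 0.030 and 0.13 in the other sections. For Fgf12 the authors' deposited table gives 0.61 against 0.14, 0.063 and 0.088, and for Dkk3 0.60 against 0.19, 0.32 and 0.19. Nppa did not differ in this way: the authors' deposited table gives 0.68 here against 0.75, 0.70 and 0.66.

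The atrial spots weigh on whole-section levels. They held 7.08% of the section's UMIs and 6.34% of its spots. Of 9355 genes at 10 CPM or more in the section, 13 were at least 2-fold higher with the atrial spots than without them (Fgf12, Sbk3, Tmem163, Dkk3, Nppa, Sbk2, Stard10, Podn, Ptgfr, Gja5, Kcnj3, Ndnf and Sort1), 22 were at least 1.5-fold higher and 0 were 1.5-fold lower. The atrial spots held 87.6% of the section's Nppa UMIs. Nppa was at 5844 CPM with them and 778 CPM without, beside 412 CPM in the other section with the IL-17A antibody and 3059 and 5454 CPM in the sections with the inhibitors alone. With the atrial spots this section was thus the highest of the 4 in Nppa, and without them it was below both sections given the inhibitors alone.

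Genes of smaller levels moved likewise. Kcnj3 was at 83.8 CPM with and 38.7 CPM without the atrial spots, beside 57.0 CPM in the other antibody section and 20.1 and 10.7 CPM in the sections with the inhibitors alone, so both antibody sections stayed above both others. The muscle gene Myh6 had the same order, at 17471 CPM here without the atrial spots, beside 22284, 9113 and 4773 CPM. Ptgfr, the prostaglandin F receptor, went from 27.4 to 10.7 CPM, beside 10.8, 5.15 and 3.38 CPM in the same order. Stard10, a lipid transfer protein, went from 149 to 37.4 CPM, beside 37.1, 23.7 and 12.6 CPM. Gja5 went from 21.4 to 8.87 CPM, beside 8.42, 11.5 and 11.1 CPM, and Podn, a matrix proteoglycan, from 42.1 to 16.2 CPM, beside 13.9, 25.2 and 30.6 CPM. For Gja5 and Podn the antibody section was the highest of the 4 with its atrial spots and below both inhibitor-alone sections without them. Whether treatment changed any of these genes was not tested here.

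**Figure D5:**
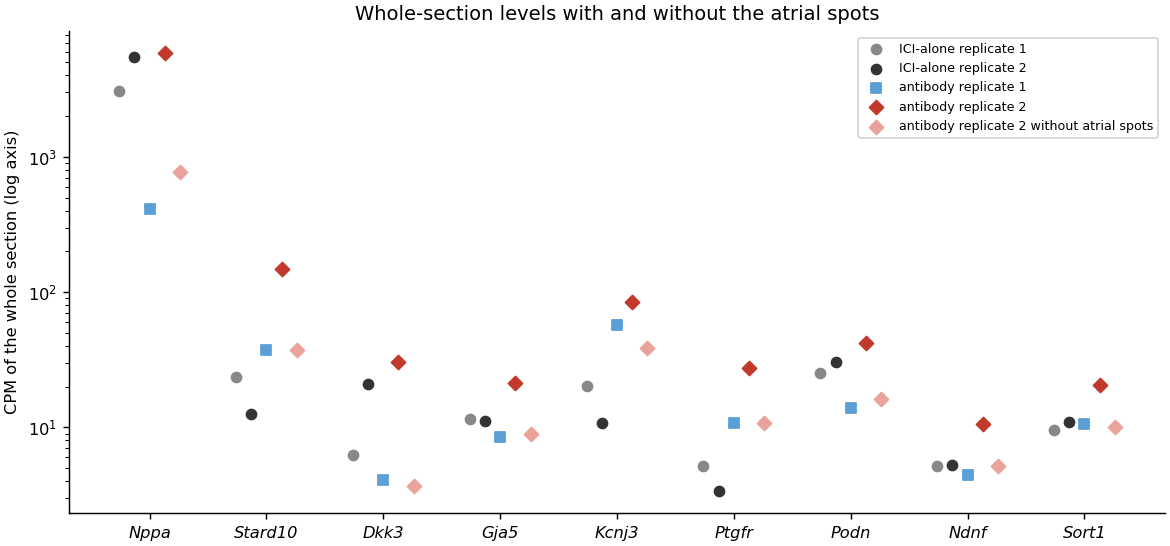
CPM of whole sections on a log axis for 9 of the 13 genes that were at least 2-fold higher with the atrial spots; circles are sections with the inhibitors alone, the square is the other antibody section, and diamonds are the section with (dark) and without (pale) its 164 atrial spots. Without them the diamonds fall near the square for most genes, Nppa from 5844 to 778 CPM.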

How the data were processed

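Each section came as a matrix of raw UMI counts for genes and spots, deposited by the authors. Per the file headers the software was Space Ranger 2.1.0. Genome mm10 and Seurat 5.1.0 are listed, without a role, in the submitters' processing notes, and the sources used here do not name the probe set. Moran's I per gene is a score that the authors deposited for every section; the adjusted p-value in the same deposited table was not used. The deposited count totals equalled the matrix sums.

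All further values were computed here in Python 3.11.15 (numpy 2.4.6, scipy 1.17.1, pandas 2.3.3). UMIs were summed per class and divided by the class total (CPM). Levels have exact Poisson and ratios exact conditional binomial intervals, at 95%, for counting error only. A gene was past 2-fold with a ratio of at least 2 or at most 0.5 and 10 CPM or more in the higher class. With 1 section there is no replicate, so no p-value was computed. TMM factors came from edgeR 4.0.16 (R 4.3.3). The calculation was tested on simulated data.

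The genes named with values are a panel of 53, the 15 highest and 15 lowest ratios with 20 CPM or more in the higher class and the same side in the largest piece, and up to 3 genes past 2-fold per list with the largest ratios (36 lists), without predicted genes. Genes named because they moved a section's level, spread unevenly over the atrial spots or were compared with Igkc were picked once their values were known. The spots, lists and motifs were chosen with earlier results of these data known. The GATA motif was first searched as AGATAA and shortened after the promoters had been seen. Promoters and gene coordinates are RefSeq's on GRCm38.p6. Comparisons with ventricular edge spots and with every other spot were added after seeing the data. Some genes of the panel and lists are not reported here by name.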

Additional observations from a re-analysis of the deposited data

How the results depend on the processing

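No paired analysis was possible because the comparison lies within 1 section and comes from no test. Of 18 alternatives, 15 were fixed beforehand and 3 were chosen after seeing the data (edge spots, every other spot, and atrial spots with Myh6 at 1% or more). The counts of 591 higher and 293 lower genes moved by over 1.5 times under 3 of them. These were a filter at 50 CPM (192 and 168), no filter (2963 and 2290), and the 8 atrial spots outside the largest piece taken alone (2596 and 1657). The last rests on few UMIs, and 7 genes past 2-fold stood past it the other way there. In the 17 other alternatives 0 genes did so. Of 98 named genes past 2-fold, 23 dropped under it in at least 1 alternative, among them Cd3d, Cd3e, Trac, Corin, Kcnip2 and Cd274. The sign turned in 4 cases: Tcf21 (log2 ratio -0.0320), Cytl1 (-2.24) and H2-Ob (-2.53) in the 8 spots, and Cd3d (-0.0358) against every other spot; the cause was not tested. Of 35 list medians 14 changed sign in at least 1 alternative, 9 of them against every other spot, the T cell and macrophage lists included. The adipocyte median was 0.72 with no filter, and the IL-17 median 0.32 with a filter at 50 CPM. Depth limits genes under 1.28 CPM in atrial spots, the level of 3 counts.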

Other observations

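Genes at least 8-fold higher in atrial spots were seldom neighbours on the genome. Of 104 such genes, 102 had a place on GRCm38.p6 and 4 adjoining pairs were found. The genes of the rule were not left out here, although Bmp10, with a ratio of 0.711, was not itself 8-fold higher. Sbk2 and Sbk3, 53.9-fold and 203-fold higher, lie 840 bases apart on chromosome 7, and Sbk3 is followed by Zfp579 after 11810 bases, 13.4-fold higher. Sort1, which encodes the sorting receptor sortilin, lies 3391 bases from Mybphl on chromosome 3 and was 14.8-fold higher. Cpne7 and Sult5a1 lie 7657 bases apart on chromosome 8 and were 12.5-fold and 14.9-fold higher. These pairs were found after the values were seen, no expected number of pairs was computed, and whether reads of 1 gene were counted in its neighbour was not tested.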
